A study of Mus musculus with 50 samples.

Results

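The 10 genes described here are known from fat cells: Adipoq, Lep, Plin1, Cidec, Cfd, Pparg, Fabp4, Lpl, Retn and Ucp1. They were chosen by symbol among the 37701 genes of the expression table, and all 10 were found. Of these, 8 had a mean RPKM (a read number scaled to transcript length and library size) of at least 0.5 over all tumors and were tested between treatments with 16733 genes in all. Lep had the lowest mean of the tested members, 1.20, whereas Retn with 0.496 lay just below the minimum and Ucp1 with 0.260 further below.

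The samples were 50 mammary gland (MG) tumors from female p53R270H/+WAPCre mice that were 8 weeks old at the start. In these mice the WAP promoter, which is active in milk-producing epithelium, drives Cre, and Cre switches on 1 mutant copy of p53 in those cells. All groups, the controls included, carried this genotype and were injected subcutaneously on alternate days with vehicle (titled untreated), insulin, glargine, X10 or IGF1, and 10 tumors were sequenced per group. Single tumors are named by their titles, in which the vehicle group is Untreated. Tumors were taken at a size of 1 cubic centimetre, 24 hours after the last injection. According to the study's methods those with an epithelial to mesenchymal transition-like appearance and a latency near the group median were chosen for sequencing. Insulin lowers blood glucose, glargine is its long-acting analogue, X10 is an insulin analogue with a raised affinity for the IGF1 receptor, and IGF1 is that receptor's own ligand. The comparisons ask whether the adipocyte genes differed between the treatments and how they varied from tumor to tumor. Read numbers recovered from the steps of the table gave 26.6 to 51.9 M reads per library (median 40.9), and no columns were identical. Library size did not track the members, with Pearson's r between -0.13 and 0.23 over 50 tumors (permutation test, adjusted p = 0.982 for each of the 10).

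The mammary gland lies in a pad of white fat, and its adipocytes store triglyceride in a large droplet and secrete hormones. Pparg is the nuclear receptor that drives fat cell differentiation, together with factors of the C/EBP family. Adipoq encodes adiponectin, Lep leptin, Cfd the complement protease adipsin and Retn resistin, all secreted. Plin1 coats the lipid droplet and restrains lipolysis, and Cidec lets droplets fuse. Lpl releases fatty acids from circulating lipoproteins, Fabp4 carries them inside the cell, and Ucp1 uncouples respiration in the mitochondria of brown and beige fat cells. Fabp4 is also made by endothelial cells and macrophages, and Lpl and Pparg by macrophages and muscle. In tumor pieces, fewer fat cells and less RNA per fat cell cannot be told apart.

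The sequences before the start sites of 4 members, Adipoq, Lep, Cidec and Plin1, are given first. Every match to the C/EBP element TTNNGNAA, on either strand, is in capitals. These 4 and Cfd varied closely together, as described further on. Cfd, whose sequence at hand held no match, is not printed. RefSeq promoter sequences (GRCm38.p6, 250 bases before to 50 bases after the start site) were at hand for 8 of the 10 members, all but Fabp4 and Lpl, with 11 start sites among them. The 200 bases before the start site read as follows, 5′ to 3′ on the strand of the gene.
Adipoq (chr16:23146336-23146535, plus strand): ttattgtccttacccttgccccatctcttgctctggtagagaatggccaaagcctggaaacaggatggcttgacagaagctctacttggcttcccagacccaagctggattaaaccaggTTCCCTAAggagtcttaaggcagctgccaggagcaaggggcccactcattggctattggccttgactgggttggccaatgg
Lep (chr6:29060021-29060220, plus strand): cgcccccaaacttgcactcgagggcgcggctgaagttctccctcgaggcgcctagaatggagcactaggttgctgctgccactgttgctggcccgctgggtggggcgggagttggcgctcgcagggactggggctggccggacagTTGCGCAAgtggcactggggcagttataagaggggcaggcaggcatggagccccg
Cidec (chr6:113435761-113435960, minus strand, the first of 2 start sites): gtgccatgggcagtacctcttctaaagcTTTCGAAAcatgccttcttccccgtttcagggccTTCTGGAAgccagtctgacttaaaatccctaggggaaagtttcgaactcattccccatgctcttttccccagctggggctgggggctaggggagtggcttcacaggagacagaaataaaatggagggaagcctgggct
Plin1 (chr7:79732777-79732976, minus strand): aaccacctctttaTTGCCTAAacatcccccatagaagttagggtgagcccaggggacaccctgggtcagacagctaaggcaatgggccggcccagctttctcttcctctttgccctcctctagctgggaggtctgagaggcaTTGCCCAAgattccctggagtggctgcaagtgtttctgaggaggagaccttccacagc

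The element began 81 bases before the start site of Adipoq and 55 bases before that of Lep, where it reads the same on both strands. It began 172 and 138 bases before the first start site of Cidec. Plin1 held it 58 bases before the start site and near the upstream end of the printed stretch, and again at 247 bases, outside it. In GENCODE M21 the gene Plin1 begins further upstream than this RefSeq start site, at 79732903. The match at 58 bases thus lies within the GENCODE bounds of the gene. Of the 8 members with a promoter, 5 held it in at least 1 (these 4 and Pparg), and Cfd, Retn and Ucp1 held none in this window. It is a loose pattern that 40.7% of all 32851 promoters in the table contain, beside 6 of the 11 member promoters. The CCAAT box (CCAAT, either strand) was present in promoters of Adipoq and Pparg, and in 37.4% of all promoters. The TATA box (TATAAA, either strand) was present in a promoter of Pparg, and in 13.6% of all. The PPAR element (the half-site AGGTCA, any 1 base, and the half-site again) was matched in 0 of the 11, and with at most 1 mismatch also in 0, beside 0.0396% and 0.554% of all promoters. In the member promoters no match to one motif overlapped a match to another, and a match is a description of letters only.

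Taken by level, Fabp4 and Lpl were present in every tumor, whereas the genes restricted to fat cells ranged from a few reads to high levels. Adipoq (chromosome 16, 23146536 to 23158028, GRCm38, plus strand) had a median of 1.61 RPKM over the 50 tumors, from 0.055 in Untreated_161 to 49.9 in X10_105. In vehicle tumors it ran from 0.055 through a median of 3.82 to 33.4 RPKM, and in insulin tumors from 0.142 through 0.656 to 16.5. In glargine tumors its lowest, median and highest values were 0.066, 10.5 and 35.7 RPKM. X10 tumors gave 0.109, 1.41 and 49.9, and IGF1 tumors 0.251, 1.17 and 4.95. All 5 ranges overlapped, each group held tumors with next to none, and 14 of the 50 tumors were below 0.5 RPKM. The values were spread without a wide break, the largest step between neighbouring tumors being 0.73 on a log2(RPKM + 0.5) scale that spanned 6.51.

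Of the other secreted products, adipsin (Cfd, chromosome 10, 79890853 to 79892655, plus strand) had the highest levels and the widest spread. Its lowest, median and highest values were 0.054, 9.17 and 65.0 RPKM with vehicle, and 0.108, 1.64 and 15.8 with insulin. Glargine tumors ran from 0.065 through 17.1 to 117.5 RPKM, X10 tumors from 0.152 through 3.67 to 142, and IGF1 tumors from 0.119 through 3.35 to 11.5. As for Adipoq, the tumors of every treatment overlapped, and Untreated_161 and X10_105 were again the ends of the range.

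Leptin (Lep, chromosome 6, 29060220 to 29073877, plus strand) was lower, with a median of 0.340 RPKM and a highest value of 8.66 in glargine_78. Its medians were 0.196 with vehicle, 0.321 with insulin, 1.35 with glargine, 0.248 with X10 and 0.324 RPKM with IGF1. The highest tumor of each group had 2.31, 6.19, 8.66, 3.73 and 0.957 RPKM in the same order, and the lowest had 0.011, 0.016, 0.033, 0.011 and 0.043. In 30 of the 50 tumors Lep was below 0.5 RPKM, so most of its range lies in a minority of tumors.

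Resistin (Retn, chromosome 8, 3655770 to 3660110, plus strand) was below 0.5 RPKM in 35 tumors and at 0 in 2. It was highest in glargine_70 with 4.95 RPKM, followed by X10_105 with 3.30 RPKM. The group medians were 0.402 with vehicle, 0.124 with insulin, 0.442 with glargine, 0.224 with X10 and 0.184 RPKM with IGF1.

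The lipid droplet genes had a similar order of tumors, with a Spearman's rho to Adipoq of 0.94 for Plin1 and 0.95 for Cidec. Perilipin 1 (Plin1, chromosome 7, 79720218 to 79732903, minus strand) was at 0 in 2 tumors, 1 with vehicle and 1 with insulin, and reached 11.4 RPKM in glargine_70. Its group medians were 0.641 with vehicle, 0.263 with insulin, 1.47 with glargine, 0.374 with X10 and 0.204 RPKM with IGF1. Cidec (chromosome 6, 113424634 to 113435760, minus strand) had medians of 1.90, 0.374, 5.85, 1.57 and 1.05 RPKM in the same order of groups. It ran from 0.040 RPKM in insulin_27 to 23.5 in glargine_70. In the IGF1 group neither gene exceeded 2.87 RPKM in any tumor, whereas each of the other groups had a tumor with at least 3.82 RPKM of Plin1 and 7.65 of Cidec.

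Of the lipid uptake genes, Fabp4 (chromosome 3, 10204088 to 10208576, minus strand) was the most abundant member, with a median of 55.1 RPKM and a range of 17.4 (X10_95) to 431 (glargine_70). With vehicle its lowest, median and highest values were 18.5, 46.8 and 222 RPKM, with insulin 29.7, 42.7 and 140.5, and with glargine 18.9, 164 and 431. X10 tumors gave 17.4, 61.3 and 311 RPKM, and IGF1 tumors 28.2, 48.3 and 167. Lpl (chromosome 8, 68880491 to 68907448, plus strand) had medians of 13.9 with vehicle, 16.2 with insulin, 30.7 with glargine, 17.1 with X10 and 9.58 RPKM with IGF1. Its highest value was 102.5 RPKM in glargine_64 and its lowest 3.52 in IGF1_147. Neither gene was below 0.5 RPKM in any tumor.

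Pparg (chromosome 6, 115360951 to 115490399, plus strand) varied least among the tested members, from 0.381 RPKM in Untreated_161 to 6.22 in glargine_69. Its lowest, median and highest values were 0.381, 1.39 and 3.44 RPKM with vehicle and 0.585, 1.42 and 2.16 with insulin. With glargine they were 1.26, 2.28 and 6.22 RPKM, with X10 0.954, 2.14 and 4.12, and with IGF1 0.706, 1.57 and 3.12. The lowest glargine tumor lay below the vehicle median, so these groups overlapped too.

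Ucp1 (chromosome 8, 83290352 to 83298452, plus strand) was close to absent outside a few tumors. It was below 0.5 RPKM in 47 of 50 and at 0 in 3, with a median of 0.061 RPKM (4.5 reads). The 3 tumors at 1 RPKM or more were Untreated_189 with 5.26 RPKM (420 reads), Untreated_162 with 2.19 and X10_105 with 1.88 (151 reads). Cidea, a brown fat droplet protein, had its 3 highest values in these same tumors, 7.44, 3.11 and 6.99 RPKM. Cox8b, a muscle and brown fat subunit of cytochrome oxidase, stood at 14.2, 2.16 and 25.8 RPKM there, with 2, 16 and 1 tumors higher. The other brown fat genes differed in this. Dio2 had 5, 40 and 35 tumors higher, Cox7a1 11, 40 and 3, and Prdm16 24, 6 and 15, in the same order, whereas Elovl3 had 2, 1 and 3 and the coactivator Ppargc1a 4, 13 and 3. Elovl3 rested on 19, 20 and 17 reads there and did not exceed 0.393 RPKM in any tumor.

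**Figure D1:**
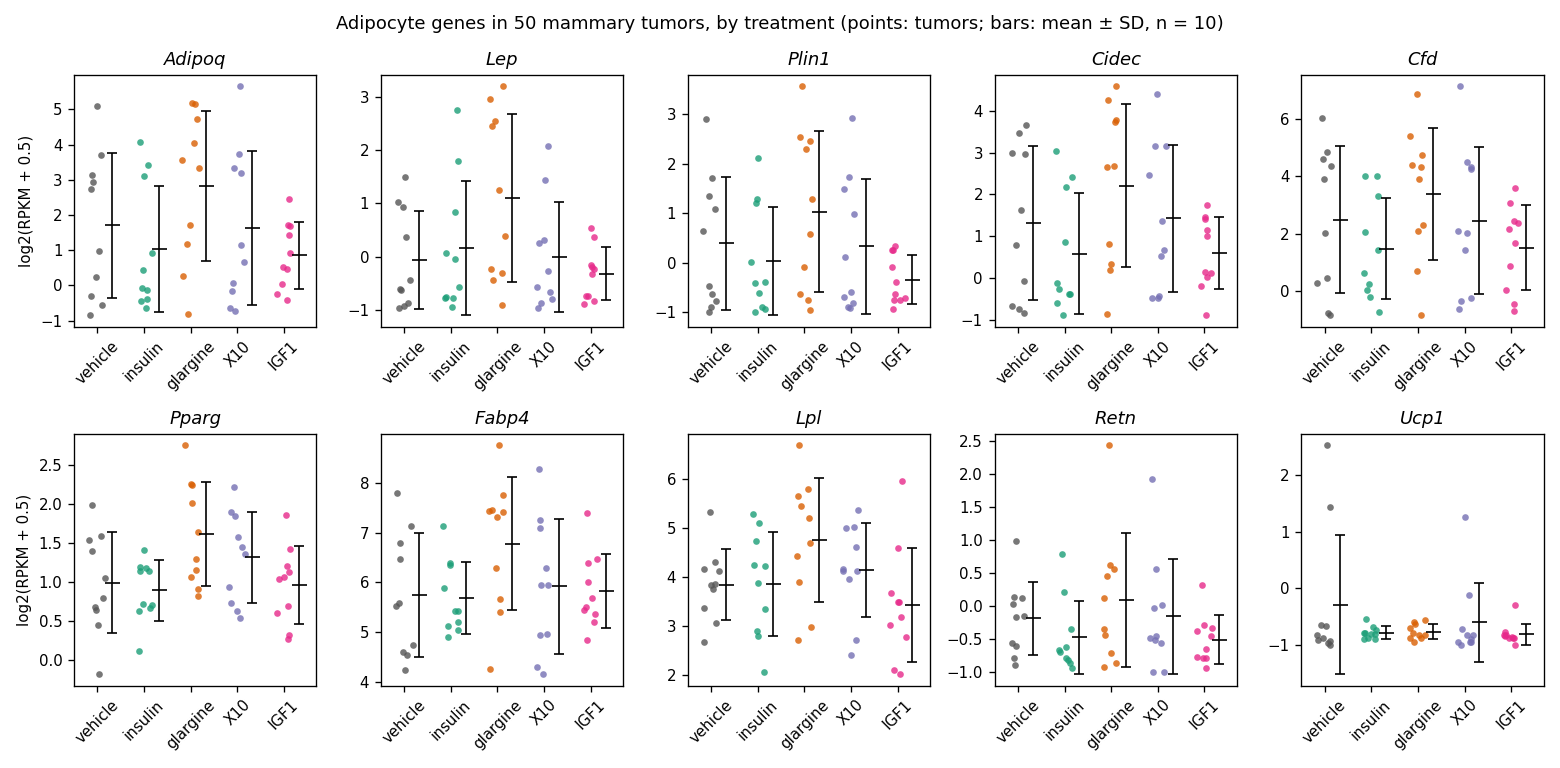
Expression of the 10 adipocyte genes, 1 panel per gene, in log2(RPKM + 0.5) on the vertical axis against treatment on the horizontal axis. Each point is 1 tumor, and the bars are the mean ± SD of the 10 tumors of a treatment. The points of the 5 treatments overlap in every panel, and Ucp1 lies near the floor in all but a few tumors.

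Across all tumors, the members were among the more variable genes. The SD of log2(RPKM + 0.5) over 50 tumors was 2.21 for Cfd, 1.94 for Adipoq, 1.67 for Cidec, 1.28 for Plin1 and 1.18 for Lep, against a median of 0.42 over all tested genes. These values lay at percentiles 99.6, 99.2, 98.5, 96.4 and 95.3 of the tested genes. Fabp4 (1.14) and Lpl (1.10) lay at percentiles 94.9 and 94.3, and Pparg (0.61) at 75.3. Treatment accounted for 9.3% to 20.5% of a member's variance over the tumors, with Pparg at the upper end and Ucp1 at the lower, beside 9.3% for the median tested gene. For the members, then, at least 79.5% of the variance lay between tumors of the same treatment.

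The same few tumors were high or low for most members. glargine_70 was among the 5 highest tumors for 9 of the 10 genes, X10_105 and glargine_67 for 8 each, and glargine_64 for 7. glargine_63 was among the 5 lowest for 7 and Untreated_161 for 6. In glargine_63, Adipoq stood at 0.066, Plin1 at 0.016 and Cidec at 0.048 RPKM, while Fabp4 was 41.7 and Pparg 1.58. Thus the glargine group held tumors at both ends.

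**Figure D2:**
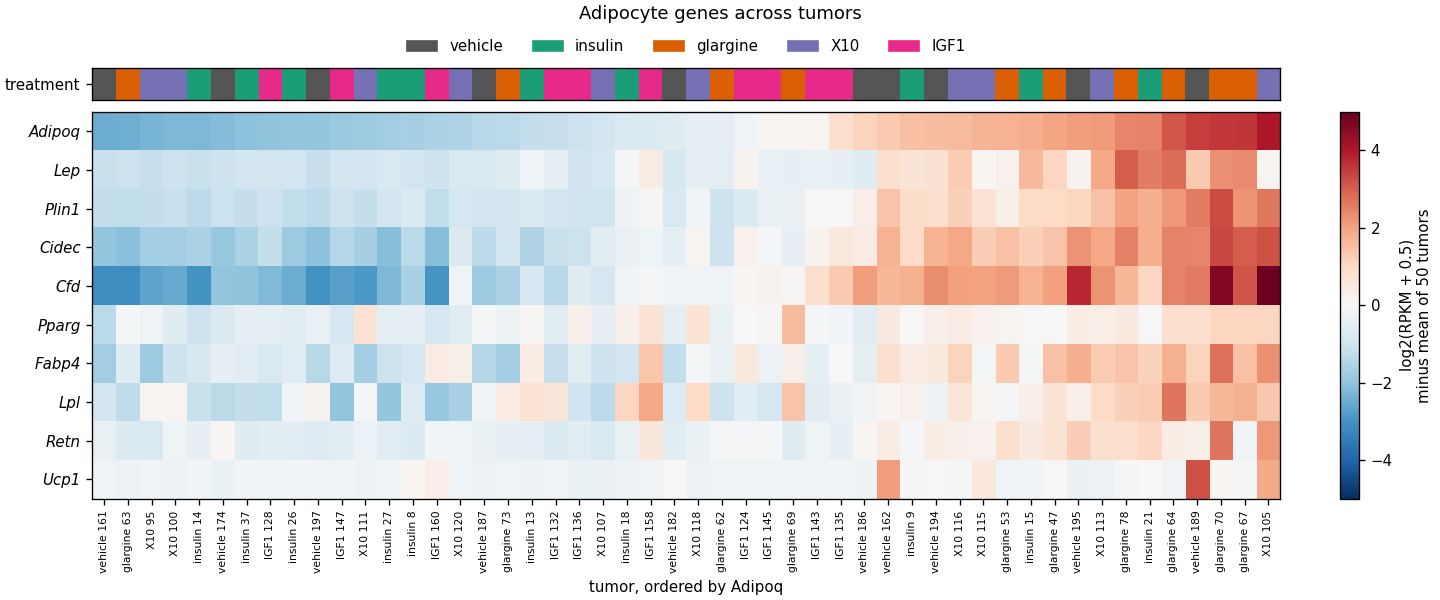
The 10 genes (rows) in the 50 tumors (columns), with the tumors ordered by Adipoq and their treatment given by the bar on top. Colour is log2(RPKM + 0.5) minus the gene's mean over all tumors. Lep, Plin1, Cidec and Cfd change from blue to red in the same order as Adipoq, and Lpl, Pparg and Ucp1 follow it less closely.

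Pearson's r and Spearman's rho of log2(RPKM + 0.5) were computed for all 45 pairs of members over the 50 tumors, with permutation tests of 100000 resamples (two-sided) and adjustment over the 45 pairs. The 10 pairs among Adipoq, Lep, Plin1, Cidec and Cfd had r of 0.75 to 0.98 (median 0.93) and rho of 0.88 to 0.96, with an adjusted permutation p of 1.36e-05 (r) and 1.41e-05 (rho) for each, from the smallest p (1e-05) that these permutations can give. Over all pairs of tested genes r had a median of 0.02, and 0.161% of pairs exceeded 0.75. Adipoq and Cidec had the highest r (0.98, rho 0.95), and Lep and Cfd the lowest of the 10 (0.75, rho 0.88). With values centred on their treatment mean these pairs had r of 0.75 to 0.98, without the 2 tumors farthest from the median 0.78 to 0.97, and within single treatments (10 tumors each) 0.59 to 0.99.

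The 26 pairs that involved Pparg, Fabp4, Lpl or Retn, but not Ucp1, had r of 0.50 to 0.84 and rho of 0.46 to 0.81, all with an adjusted permutation p of 0.00085 or lower. Fabp4 had an r of 0.83 with Adipoq and 0.82 with Retn. Lpl had its highest r with Pparg (0.76, rho 0.74) and lower ones with Adipoq (0.66), Cfd (0.60) and Fabp4 (0.57). In IGF1_158, for example, Lpl was 61.3 RPKM and Fabp4 167, while Adipoq was 1.40 and Plin1 0.768. In glargine_69, where Pparg was at its highest, Lpl was 42.8 RPKM and Adipoq 2.76. In both tumors Adipoq lay between its quartiles over all tumors, 0.426 and 9.32 RPKM.

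Ucp1 tracked the other members loosely, with r of 0.23 to 0.50 and rho of 0.18 to 0.43 over 9 pairs. The pairs with Lep (r = 0.25, adjusted permutation p = 0.0688) and Lpl (r = 0.23, adjusted permutation p = 0.108) did not pass the test by Pearson's r. By rank the pair with Lep passed (rho = 0.38, adjusted permutation p = 0.00671), and those with Pparg (rho = 0.18, adjusted permutation p = 0.213) and Lpl (rho = 0.23, adjusted permutation p = 0.111) did not. Within single treatments the r of these 9 pairs ran from -0.58 to 0.84, and in 47 of the 50 tumors Ucp1 was below 0.5 RPKM.

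**Figure D3:**
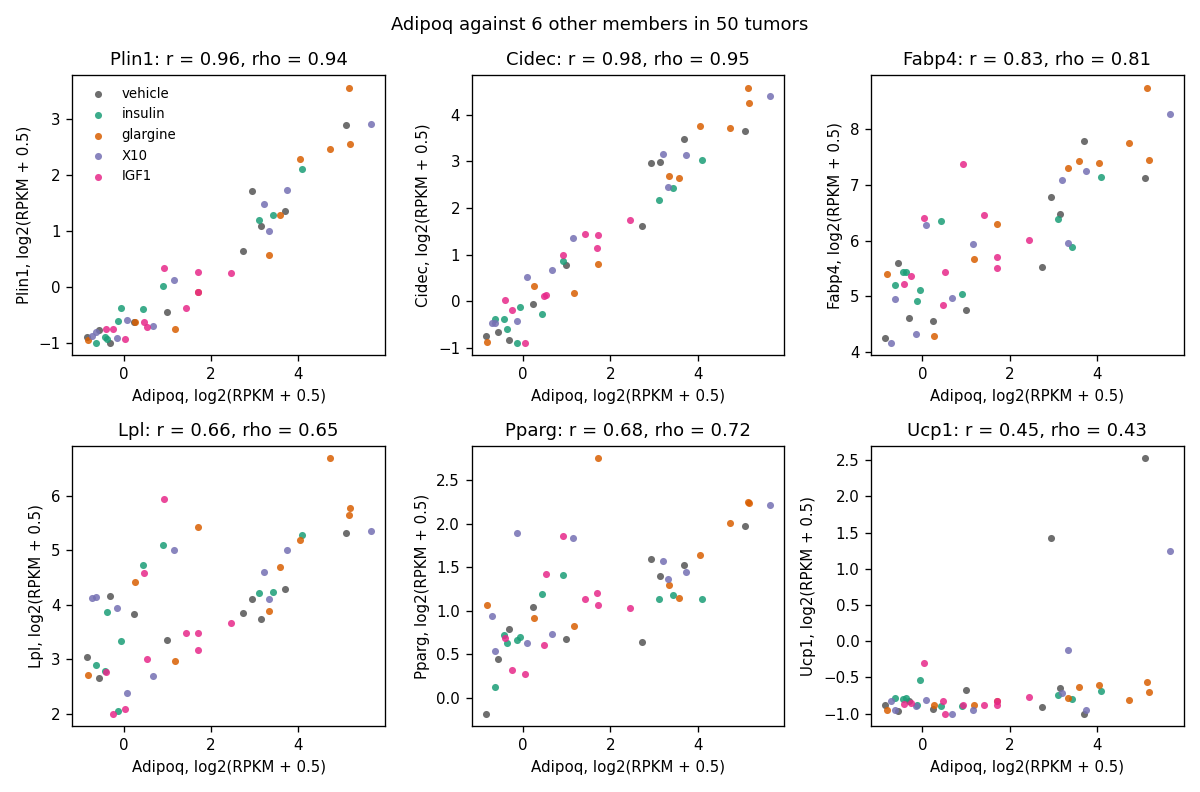
Adipoq on the horizontal axis against Plin1, Cidec, Fabp4, Lpl, Pparg and Ucp1 on the vertical axes, both in log2(RPKM + 0.5), 1 point per tumor, coloured by treatment. Plin1 and Cidec lie along a line with Adipoq (r of 0.96 and 0.98), Lpl scatters widely at low Adipoq, and Ucp1 departs from its floor in a few tumors.

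The ratio of 1 member to another in the same tumor does not depend on library size. Per unit of Adipoq, the median RPKM ratio was 2.04 for Cfd, 0.675 for Cidec, 0.207 for Plin1 and 0.195 for Lep, and the SD of its log2 was 0.97, 0.94, 0.83 and 1.15. For Fabp4, Lpl and Pparg the SD of the log2 ratio was 1.85, 2.10 and 2.16. The leptin to adiponectin ratio ran from 0.0147 in X10_105, the tumor with the most Adipoq, to 0.685. The median ratio was 0.134 with vehicle, 0.321 with insulin, 0.171 with glargine, 0.189 with X10 and 0.216 with IGF1. The mean log2 ratio with insulin, -1.81 ± 0.70 (SD, n = 10), was 1.24 above that with vehicle, -3.05 ± 1.28 (two-sided permutation test, p = 0.0165). After adjustment over the 16 ratio comparisons (Lep, Plin1, Cidec and Cfd in 4 treatments, added after the data had been seen) p was 0.264, and none of the 16 passed.

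Likeness of tumor pattern to each member was ranked among the tested genes only, by Spearman's rho over 50 tumors. Of these, the nearest to Adipoq were Plin4 (0.97) and the members Cfd, Cidec and Plin1. Next came Pck1 (0.94), Tusc5 (0.92), Lep, Car3 (0.87), Tmem45b (0.86) and Sncg (0.85). Plin4 is another droplet protein and Pck1 the enzyme of glyceroneogenesis. For Lep the nearest genes were Plin4, Plin1 and Adipoq, for Plin1 Pck1, Plin4 and Cidec, for Cidec Cfd, Adipoq and Pck1, and for Cfd Adipoq, Cidec and Plin4. Fabp4 was nearest to Tusc5 (0.85), the fatty acid transporter Cd36 (0.83) and Plin4 (0.82), and Retn to Fabp4 (0.80), Sncg (0.80) and Plin4 (0.76). Pparg was nearest to Lpl (0.74), Plin4 (0.74) and Cidec (0.73), and Lpl to Pparg, Adhfe1 (0.73) and Zfyve28 (0.70). The nearest genes to Ucp1 reached lower values, with Acacb at 0.53, Tusc5 at 0.53 and Obsl1 at 0.52.

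Between treatments, glargine tumors had the highest mean log2 value for 9 of the 10 members, and no member passed the test in any comparison. Lep, Pparg and Fabp4 differed most clearly from vehicle before adjustment. The test was limma on log2(RPKM + 0.5) with Benjamini-Hochberg adjustment over 16733 genes, and the differences below are on that scale, which understates those of low genes. For no member did any pair of neighbours in the order of the 5 group means differ by more than the SD within groups. The largest step relative to that SD was for Lep, 0.94 between glargine and insulin against an SD of 1.12. From the highest to the lowest group mean the members spanned 0.81 (Ucp1) to 1.28 (Pparg) times the SD within groups.

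Of the 4 comparisons with vehicle, that of glargine had the median difference farthest from 0. All 8 tested members had estimates above 0, with a median of 0.91 against 0.02 over all tested genes. Lep was 1.16 higher in log2 (95% interval 0.18 to 2.13, unadjusted p = 0.0215), Fabp4 1.03 (0.06 to 2.00, p = 0.0382), Pparg 0.62 (0.12 to 1.12, p = 0.0163) and Lpl 0.91 (-0.01 to 1.83, p = 0.0524), and the adjusted p in limma was 0.789 for each of them. With that test 0 of 8 members passed, beside 0% of all tested genes (0 genes in limma, 0 in limma voom on recovered reads). At an unadjusted p under 0.05 there were 3 members, all higher with glargine, against 6.23% of all tested genes in either direction and 3.31% higher. As the members vary together from tumor to tumor, these 3 are not separate pieces of evidence. Without glargine_64, glargine_67 or glargine_78 only Pparg of the 8 had an unadjusted p under 0.05, and without Untreated_161 only Lep. Adipoq differed by 1.12 (-0.51 to 2.76), Cidec by 0.89 (-0.51 to 2.30), Cfd by 0.90 (-0.99 to 2.80) and Plin1 by 0.64 (-0.45 to 1.73), so the intervals of these fat-restricted genes reach from a lower to a several-fold higher level. Without glargine_70 the differences of Cfd and Plin1 were 0.52 and 0.36, and that of Cfd was 0.53 without Untreated_161, 0.54 without Untreated_197 and 1.37 without glargine_63.

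Milk protein genes also had higher estimates in the glargine group. All 5 milk protein genes (Csn2, Csn1s1, Csn3, Lalba and Wap) had an unadjusted p under 0.05 there, with a median difference of 2.62 and 0 past the adjustment. Their summed level ran from 0.674 through a median of 129 to 754 RPKM with glargine and from 0.425 through 7.12 to 309 with vehicle, and none was at 0 in every tumor. glargine_78, with the highest Lep, also had the highest Csn2 (316 RPKM), Csn1s1 (206) and Lalba (29.8). The 8 skeletal muscle markers had a median difference of 0.84, and 0 of them had an unadjusted p under 0.05 in limma. Their summed level had a median of 30.7 RPKM with glargine and 43.5 with vehicle, and a highest value of 5113 and 2658. Of the 8 muscle markers 7 were highest in glargine_64, the tumor with the highest Lpl. The part of these markers in the differences of the members was not tested.

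Insulin against vehicle gave differences of both signs. Of the 8 members 6 were below 0 and 2 above, with a median of -0.23 against 0.03 over all tested genes. The estimates ran from -1.01 for Cfd (95% interval -2.91 to 0.89) to 0.22 for Lep (-0.76 to 1.19). Without Untreated_195 that of Cfd was -0.62, and without insulin_21 that of Lep was -0.07. By the adjusted p in limma 0 of 8 passed, beside 0% of all tested genes (0 also with limma voom), and at an unadjusted p under 0.05 there were 0 members against 11.1% of all.

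X10 against vehicle left the members near 0. The median difference was 0.09 against -0.03 over all tested genes, with 5 above and 3 below 0. Pparg had the highest estimate, 0.32 (95% interval -0.18 to 0.83), and Adipoq the lowest, -0.08 (-1.71 to 1.56). Without Untreated_161 Pparg differed by 0.20, and Adipoq by -0.52 without X10_105 and 0.30 without Untreated_189. Here 0 of 8 passed in limma, beside 0.0657% of all tested genes (11 genes), and 0 at an unadjusted p under 0.05 against 11% of all. The intervals of Adipoq, Cidec, Cfd and Plin1 all include -1 and 1, so a difference of that size in either direction was not excluded.

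With IGF1, 7 of the 8 members had estimates below 0, the exception being Fabp4 (0.09, 95% interval -0.88 to 1.06). The median difference was -0.57 against 0.02 over all tested genes. The group medians of Lep and Pparg were nevertheless above those with vehicle, at 0.324 against 0.196 RPKM and 1.57 against 1.39. Cfd had -0.98 (-2.88 to 0.92), Adipoq -0.85 (-2.49 to 0.78), Plin1 -0.73 (-1.82 to 0.36) and Cidec -0.72 (-2.13 to 0.69). In limma 0 of 8 passed, beside 0.00598% of all tested genes (1 gene), and 0 at an unadjusted p under 0.05 against 8.84%. Without Untreated_189 the differences of Adipoq, Plin1 and Cidec were -0.48, -0.45 and -0.46, and without Untreated_195 those of Cfd and Cidec were -0.59 and -0.48. For 5 of the 8 members the spread was narrowest in this group, where the SD of Adipoq over 10 tumors was 0.95 in log2, against 1.8 to 2.19 in the other groups. Lep (0.50 against 0.93 to 1.58), Plin1 (0.49 against 1.10 to 1.63), Cidec (0.87 against 1.44 to 1.94) and Cfd (1.49 against 1.78 to 2.56) were likewise narrowest here. Pparg and Fabp4 varied more with IGF1 (0.496 and 0.747) than with insulin (0.388 and 0.728), and Lpl (1.17) more than with vehicle, insulin or X10. No test of the spread was run.

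The study set the 20 tumors of the compounds with high affinity for the IGF1 receptor, X10 and IGF1, against the other 30. All 8 members had estimates below 0, with a median of -0.42 against -0.02 over all tested genes. Against vehicle the medians were 0.09 with X10, -0.57 with IGF1, 0.91 with glargine and -0.23 with insulin. As the members vary together, the 8 estimates are not separate pieces of evidence. Adipoq differed by -0.61 (95% interval -1.67 to 0.44), Lep by -0.56 (-1.19 to 0.07), Plin1 by -0.49 (-1.19 to 0.21) and Pparg by -0.03 (-0.35 to 0.30). None of the 8 passed in limma, beside 0.155% of all tested genes (26 genes), and 0 did at an unadjusted p under 0.05 against 10.5% of all. This comparison uses all 50 tumors and so shares every one with those above.

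Asked over all 5 treatments at once with limma's F test, 0 of 8 members passed, beside 0.102% of all tested genes (17 genes). At an unadjusted p under 0.05 there was 1 member, Pparg (p = 0.0286, adjusted p = 0.332), against 13.1% of all. Lep followed with an unadjusted p = 0.0556 and Lpl with p = 0.0718 (adjusted p = 0.395 and 0.427, limma).

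Retn and Ucp1 were below the minimum and were fitted with all 35563 genes that had a nonzero value. Retn differed from vehicle by 0.28 with glargine (95% interval -0.35 to 0.91), -0.29 with insulin, 0.03 with X10 and -0.32 with IGF1. Without glargine_70 the first of these was 0.02, and without Untreated_195 those with insulin and IGF1 were -0.16 and -0.19. Ucp1 was below vehicle by estimate in each treatment, by -0.48 with glargine (-1.04 to 0.09), -0.49 with insulin (-1.06 to 0.07), -0.31 with X10 (-0.87 to 0.25) and -0.52 with IGF1 (-1.08 to 0.04). The Ucp1 medians did not follow these estimates, at 0.052 RPKM with vehicle, 0.076 with insulin, 0.073 with glargine, 0.0485 with X10 and 0.052 with IGF1. Without Untreated_189 the differences were -0.16 with glargine, -0.18 with insulin, 0.003 with X10 and -0.21 with IGF1. Without Untreated_162 they were -0.28, -0.30, -0.12 and -0.33 in the same order, and without X10_105 that with X10 was -0.52. The adjusted p in limma was 0.69 or higher for Ucp1 and 0.735 or higher for Retn in every comparison.

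**Figure D4:**
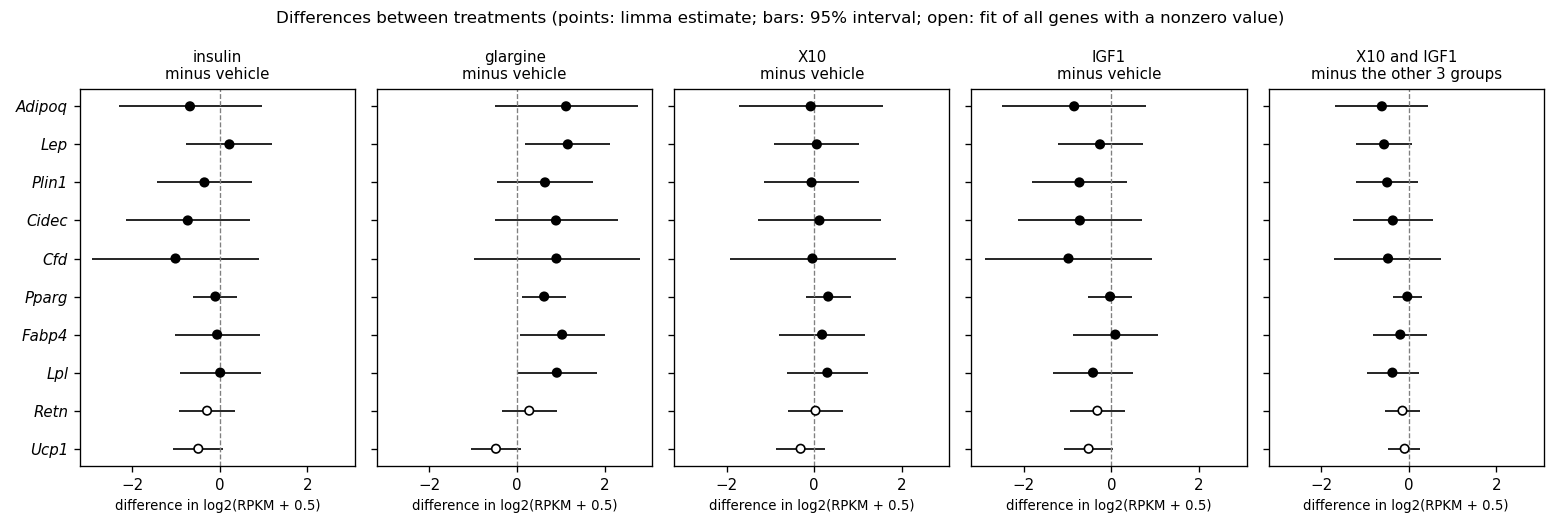
Differences between treatments for the 10 genes (rows), 1 panel per comparison, in log2(RPKM + 0.5) on the horizontal axis. Points are limma estimates and bars their 95% intervals, and open points come from the fit of all genes with a nonzero value. With glargine the intervals of Lep, Pparg and Fabp4 lie above 0 before adjustment, and every other interval includes 0.

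Of the other genes of adipocyte biology, in 8 lists of 6 to 14 tested genes, none passed the adjusted test in any comparison. The lists differed in how closely they followed Adipoq. In the lipid droplet and lipolysis list, 4 of 11 genes had a rho above 0.5 with Adipoq: Plin4, Lipe, Pnpla2 and Cidea (0.97, 0.68, 0.52 and 0.51). The most abundant droplet genes did not follow it: Plin2, at a mean of 392 RPKM, had a rho of -0.15 and the lipase cofactor Abhd5, at 48.3, one of -0.01. Of the 14 lipid synthesis genes 2 had a rho above 0.5, Pck1 (0.94) and Gpd1 (0.77), whereas the most abundant, Fasn (fatty acid synthase, mean 310.5 RPKM) and Acly (180.2 RPKM), had 0.32 and 0.17. Lpin1 and Scd1 had the smallest unadjusted F test p-values of that list, 0.00563 and 0.0095 (adjusted p = 0.213 and 0.253, limma). Lpin1 had estimates of 0.53 with insulin and 0.51 with glargine, and Scd1 one of -1.21 with IGF1.

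Of the tested uptake and transport genes, Cd36 (0.84) and the insulin-responsive glucose transporter Slc2a4 (0.66) had a rho above 0.5. The abundant receptor Lrp1 (mean 1216 RPKM), Fabp5 and the Lpl anchor Gpihbp1 had -0.35, -0.10 and -0.38. Among transcription factors, Ebf2 had 0.54, Srebf1 0.10, Cebpb -0.42 and Cebpd -0.15. Of the secreted factors, Nrg4 was highest with 0.69, while Angptl4, an inhibitor of Lpl at a mean of 137 RPKM, had 0.13 and Nnat 0.31. The adiponectin receptors Adipor1 and Adipor2, at 67.7 and 39.8 RPKM, had -0.37 and -0.26, and the insulin receptor Insr -0.08, while the natriuretic peptide clearance receptor Npr3 had 0.56. Among the tested genes of the brown and beige list, Cox8b (0.60), Ebf2 and Cidea were above 0.5, Cox7a1 had 0.35, Zfp516 -0.18 and Dio2 0.00. In the preadipocyte and fibroblast list no gene exceeded 0.5, and Dcn, Col15a1, Pdgfrb and Ly6a had -0.06, 0.27, -0.05 and 0.30. Genes of these lists below the minimum RPKM are not counted above. Of them, Adrb3, Aqp7, Acvr1c and Plin5 had a rho of 0.89, 0.81, 0.81 and 0.68. Sfrp5, Prdm16, Ppara and Elovl3 had 0.37, 0.37, 0.27 and 0.13. Lipe, Pnpla2, Gpd1, Slc2a4, Nrg4 and Npr3 were named for their rho after their values had been seen.

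**Figure D5:**
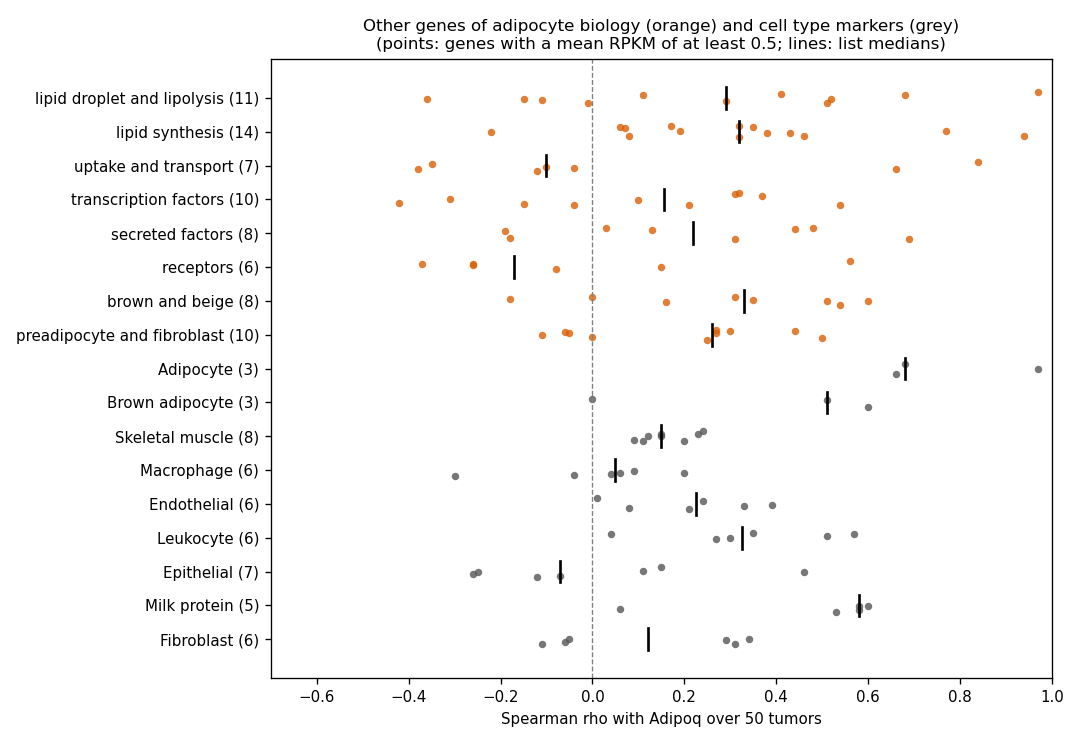
Spearman's rho with Adipoq over 50 tumors (horizontal axis) of other genes, by list (rows, with the number of genes plotted in brackets). Each point is 1 gene with a mean RPKM of at least 0.5, lines are list medians, orange marks lists of adipocyte biology and grey marks cell type markers. Each adipocyte biology list spreads from near or below 0 to at least 0.5, and 4 of the 5 milk protein genes lie above 0.5.

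Adipoq was also set against the mean z-score of each marker list of another cell type, 8 lists in all, with permutation tests of 100000 resamples and adjustment over the 8. It tracked the brown adipocyte markers other than Ucp1 (r = 0.61, rho = 0.50, adjusted permutation p = 0.00016 and 0.0012) and the milk protein genes (r = 0.52, rho = 0.57, adjusted permutation p = 0.00052 and 0.00024). In the brown list, Cidea and Cox8b had a rho of 0.51 and 0.60 with Adipoq, against 0.13 for Elovl3 and 0.00 for Dio2, and Cox8b was highest in glargine_64. The leukocyte markers were weaker (r = 0.35, rho = 0.39, adjusted permutation p = 0.0305 and 0.0158), and without the 2 tumors farthest from the median their r was 0.31 with an adjusted permutation p = 0.0801. Among these, the B cell gene Cd79a had its highest value, 84.5 RPKM, in X10_105. Fibroblast (r = 0.29), endothelial (0.27), skeletal muscle (0.25), epithelial (0.05) and macrophage markers (-0.02) did not pass (adjusted permutation p of 0.0856 or higher). On RPKM without a log the r with milk protein genes was 0.218 (adjusted permutation p = 0.147) and that with leukocyte markers 0.337 (adjusted permutation p = 0.0541), so neither passed. With values centred on the treatment mean, r was 0.59 for brown adipocyte, 0.45 for milk protein and 0.44 for leukocyte markers.

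The other members were compared with the same lists, a family of 80 relations that was added after the data had been seen. Milk protein genes passed by Pearson's r for every member but Ucp1, with r of 0.38 (Lpl) to 0.57 (Lep) and adjusted permutation p of 0.0226 or lower. Brown adipocyte markers passed for all 10, from 0.48 for Pparg to 0.76 for Ucp1. For Ucp1 the rho was 0.36 (adjusted permutation p = 0.0325), the r without Untreated_189 and Untreated_162 was 0.58, and within single treatments r ran from -0.49 to 0.97. Endothelial markers passed by Pearson's r for Fabp4, which endothelial cells also express (r = 0.37, adjusted permutation p = 0.03; rho = 0.32, adjusted permutation p = 0.0705). Leukocyte markers passed for Adipoq, Plin1, Cidec and Cfd (r of 0.35 to 0.40, adjusted permutation p of 0.0157 to 0.0434) by Pearson's r, and by rank for Lep too (rho = 0.38, adjusted permutation p = 0.0238). Fibroblast markers passed for Lep by Pearson's r (r = 0.34, adjusted permutation p = 0.0495) and not by rank (rho = 0.29, adjusted permutation p = 0.11). Macrophage markers did not pass for Lpl, Pparg or Fabp4. They passed inversely for Ucp1 by Pearson's r (r = -0.41, adjusted permutation p = 0.0157) and not by rank (rho = -0.20, adjusted permutation p = 0.297), and without Untreated_189 and Untreated_162 that r was -0.28.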

How the data were processed

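RNA of 50 mammary tumors was poly-A selected, made into libraries with the Ion Total RNA-Seq kit and sequenced on an Ion Proton. The authors mapped reads to GRCm38 with TopHat2 2.0.10 and Bowtie2, counted them per gene with HTSeq 0.6.1 at its default options, which count by strand (DESeq2 1.2.10 is also listed in the submitters' processing notes) and deposited RPKM values. The build is Ensembl's, and the annotation release used for counting is not given in the sources used here. Within the table's rounding to 3 decimals, the RPKM values of a gene go in even steps, from which library sizes and reads were estimated. In each tumor at least 97.1% of values of up to 80 steps fell on a step that a whole number of reads gives. Of the tested genes 94.3% got a length this way. The reads estimated for Adipoq, Lep and Retn were even numbers in nearly all tumors with low values. They may therefore be too high and are not given, although the voom fit used them.

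Genes averaging 0.5 RPKM or more (16733) were kept, and log2(RPKM + 0.5) was fitted with limma 3.58.1 (R 4.3.3, intensity trend, all 50 tumors in 5 groups, tested on simulated data), with Benjamini-Hochberg adjustment and a threshold of 0.05. Other statistics used Python 3.11.15 and scipy 1.17.1. Places of genes are from GENCODE M21. Tumors are separate samples by title. The labels do not say that each came from a different mouse, and mice could bear several tumors, so some may share an animal, and p-values measure the spread between these tumors only. The labels give no batch, so the part of a batch in the differences between treatments could not be examined. The members and gene lists were chosen with earlier results of these data known. All members are named. Of other genes, the text names the 3 tested genes nearest by Spearman's rho to each member (10 for Adipoq). Of each list of adipocyte biology it names the 2 most abundant genes, the 2 with the smallest F test p and any that passed. Beyond this rule it names brown fat, milk protein and leukocyte markers, genes chosen for their rho, and list genes below the minimum RPKM. Alternatives were other pseudocounts (0.1 and 1), filters, scalings, weights, a fit of the compared groups alone, voom on recovered reads, and leaving out each tumor.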

Additional observations from a re-analysis of the deposited data

Results flagged for a closer look

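For each of the 10 genes the highest and the lowest tumor of each treatment were compared with the rest of their 10 tumors. Dixon's ratio on log2(RPKM + 0.5) was used, for 50 groups in all. Chance alone marks about 1 in 20 groups if they are independent and normally distributed. The members vary together, and Retn and Ucp1 lie near the floor in most tumors, so that share need not hold here. The ratio exceeded its 95% critical value in 5 groups, always for the highest tumor and always for Retn or Ucp1, the members with the fewest reads. Retn reached 4.95 RPKM in glargine_70, where the next tumor had 1.04 and the group median was 0.442. In X10_105 Retn was 3.30 RPKM, with 0.974 in the next tumor. In IGF1_158 it was 0.755 RPKM, with 0.318 in the next. Ucp1 stood at 1.88 RPKM in X10_105, with 0.42 in the next tumor of its group, and at 0.31 RPKM (19 reads) in IGF1_160, with 0.085 in the next. Untreated_189, with the highest Ucp1 of all, was not marked, since Untreated_162 lay between it and the other vehicle tumors.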

How the results depend on the processing

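No adipocyte gene passed the adjusted test in any comparison under any of the 60 other settings, 50 of which left out 1 tumor. The lowest adjusted p of a member was 0.0758 (Pparg, limma's F test with array weights, where 7 of the 8, and 20.6% of all tested genes, had an unadjusted p under 0.05), and 0.326 in the contrasts. With each tumor left out in turn, the genes called among all tested ranged over 0 to 3 for insulin, 0 to 1 for glargine, 1 to 21 for X10, 0 to 3 for IGF1, 10 to 131 for X10 and IGF1 pooled and 0 to 110 for the F test. The other settings gave 0 to 2, 0, 4 to 24, 0 to 1, 11 to 513 and 0 to 749 genes, the highest pooled and F test counts with array weights. The glargine estimates of the 8 tested members stayed above 0 under every setting in which they were fitted, and differences near 0 changed sign. With array weights Lep was -0.059 with insulin, Fabp4 -0.236 with IGF1 and Retn -0.091 with X10, and with quantile normalization Pparg was 0.045 with X10 and IGF1 pooled and Retn -0.023 with X10. Retn with X10 was -0.094 with a pseudocount of 0.1 and -0.683 with voom. With a tumor left out, the X10 differences ran from -0.523 (without X10_105) to 0.299 for Adipoq, -0.199 to 0.162 for Retn and -0.515 to 0.003 for Ucp1, Lep with insulin from -0.071 to 0.39, Fabp4 with IGF1 from -0.086 to 0.315, and Pparg in the pooled comparison from -0.076 to 0.017. The member pairs that passed numbered 43 of 45, and 41 to 45 otherwise. Of the 8 marker lists 3 passed with Adipoq, and 1 (brown adipocyte) with RPKM without a log. Its r with macrophage markers changed sign with a pseudocount of 0.1 (0.015), with centred values (0.026) and without the 2 farthest tumors (0.089), and that with epithelial markers in the latter settings (-0.028 and -0.051). The cause of these changes was not tested. No paired analysis was possible because the groups share no replicate numbers. Retn, Ucp1 and, in many tumors, Lep and Plin1 rest on few reads, as do the lowest tumors of Adipoq, Cidec and Cfd. The low values of these genes, and ratios built on them, carry a large counting error.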
